A study of Mus musculus with 9 samples.

Results

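The AP-1 family consists of transcription factors with a basic region and a leucine zipper, and its transcripts were followed here through an endotoxin pulse in an intestinal epithelial line. The 8 genes were the Fos proteins Fos, Fosb, Fosl1 and Fosl2, the Jun proteins Jun, Junb and Jund, and the related factor Atf3. They were chosen by symbol from 18193 genes that had a probe set annotated to 1 gene alone, and where a gene had several, the brightest on average over the 9 arrays stands for it. The 8 genes had 12 such probe sets. Of the 8 genes, 7 reached log2 4 on at least 3 of the 9 arrays and were tested together with 9431 genes in all. Fosb did not reach that level on any array.

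The cells were m-ICcl2, a small intestinal epithelial line from fetal C57BL/6 mice that carries the SV40 large T antigen as a transgene, so every group expressed a viral oncoprotein by design. There were 3 arrays of cells left unstimulated, 3 of cells given 100 ng/mL LPS (lipopolysaccharide, the endotoxin of Gram-negative bacteria) for 6 h, and 3 of cells given LPS at that dose for 6 h and then cultured without it for 90 h. The last group was harvested 96 h after LPS was first added and is called tolerant, the word of the series design. The labels give the unstimulated cells no culture time, so for the tolerant group the effects of long culture and of earlier LPS cannot be told apart. The arrays are labelled as biological replicates with no statement of separate cultures, so the p-values measure the spread between these samples. All cells are of 1 line, and the promoter that drives the transgene is not stated in the labels.

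AP-1 factors bind DNA as dimers. Jun proteins pair with each other or with Fos proteins, whereas Fos proteins need a partner, and different pairs prefer slightly different DNA elements. Fos, Fosb, Jun, Junb and Atf3 are classical immediate-early genes, whose transcripts rise within minutes of a growth factor, stress or Toll-like receptor signal and usually decline within hours, while Fosl1 and Fosl2 tend to follow later and Jund is expressed steadily in many cells. In the intestine, AP-1 is known for its part in epithelial proliferation, wound repair and responses to bacterial products.

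The promoters shown are those of Fos and Atf3, which rose in tolerant cells, of Junb, whose call depended on the treatment of replicates, and of Jun, which passed no test. RefSeq's table for GRCm38.p6 held a promoter for 7 of the 8 genes; Fosl1 had none there. Each line gives the 120 bases before the annotated start, 5′ to 3′ along the gene's own strand. Fos lies at chr12:85473770-85473889 on the plus strand, Junb at chr8:84978749-84978868 on the minus strand, Atf3 at chr1:191183334-191183453 on the minus strand and Jun at chr4:95052223-95052342 on the minus strand. Capitals mark TATAAA, an element of the TATA box, and 3 elements of the cyclic AMP response or AP-1 type that differ from the textbook letters.
Fos: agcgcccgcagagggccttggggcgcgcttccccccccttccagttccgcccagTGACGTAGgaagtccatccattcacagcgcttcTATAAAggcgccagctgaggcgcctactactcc
Junb: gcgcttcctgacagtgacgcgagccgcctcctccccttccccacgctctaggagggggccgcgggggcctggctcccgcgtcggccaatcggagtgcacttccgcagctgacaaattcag
Atf3: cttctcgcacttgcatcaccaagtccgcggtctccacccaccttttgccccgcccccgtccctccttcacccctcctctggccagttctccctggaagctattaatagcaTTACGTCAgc
Jun: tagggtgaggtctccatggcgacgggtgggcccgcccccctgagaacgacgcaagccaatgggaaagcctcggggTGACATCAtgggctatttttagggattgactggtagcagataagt

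Positions count the first transcribed base as 1 and the base before it as -1. In Fos, TGACGTAG lay at -66 to -59 and TATAAA at -33 to -28. In Atf3, TTACGTCA ended 3 bases before the start, at -10 to -3. In Jun, TGACATCA lay at -45 to -38. These 3 elements were added to the search after the members' promoters had been seen. Among 32851 promoters of 300 bases each (250 before and 50 after the start), both strands searched, TGACGTAG was found in 0.417%, TTACGTCA in 0.499% and TGACATCA in 3.62%. TATAAA was found in 13.6% of promoters and, among the members, in Fos and in Junb, where it began at the start itself and so lies outside the letters shown.

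No member's window held TGACTCA, the classical AP-1 element, or TGACGTCA, the cyclic AMP response element, which 5.2% and 1.79% of all promoters held. The CArG box, the serum response element's core, was likewise in no member's window and in 1.63% of all. Elements more than 250 bases before the start lay outside the search, so these absences do not cover them. TGACGCAA was in Fosb alone among the members, at -60 to -53, and in 0.49% of all promoters. The kappa-B motif was found in 8.46% of promoters and in the windows of Fos, Fosb and Fosl2, in Fosl2 at 2 positions that overlap. A match of letters is a description of the window and not evidence of a bound site.

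LPS for 6 h moved no AP-1 transcript past the test, except Junb once the replicate number was a block in the fit. Without the block, of the 7 members tested, 0 were called in limma's moderated test at an adjusted p under 0.05 (Benjamini-Hochberg over 9431 genes), and 0 at an unadjusted p under 0.05. The background at 6 h was 0.0636%, the share of all tested genes called in either direction, and it rested on 1 array: without 6 h replicate 3, 5.33% were called higher, though still 0 members. With the block 24.0% of all genes were called in either direction and 11.6% higher, beside 1 of 7 members, Junb (log2 0.56, limma adjusted p = 0.0381, higher in 3 of 3 same-numbered pairs). The members' median log2 difference was -0.15 beside -0.11 for all genes tested. The immediate-early window of minutes to hours before this time was not sampled.

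In tolerant cells, 3 members rose against unstimulated cells and 3 against 6 h LPS, and none fell by the test. They were Fos, Fosl1 and Atf3 in both comparisons, which share the tolerant arrays. Beside the 3 of 7 members, 14.0% of all tested genes were called higher in tolerant than in unstimulated cells and 7.10% higher in tolerant cells than at 6 h. Leaving out 1 array moved the first share to between 7.97% and 15.6%, with 7.97% without tolerant replicate 2, 8.58% without unstimulated replicate 2 and 8.97% without tolerant replicate 3. It moved the second to between 4.03% and 7.23%, with 4.03%, 4.29% and 4.69% without tolerant replicates 2, 3 and 1. The median difference of the 7 members was 1.16 against unstimulated cells, where that of all genes was -0.07, and 1.44 against 6 h LPS, where that of all genes was 0.01. Differences between one member's change and another's were not tested.

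**Figure D1:**
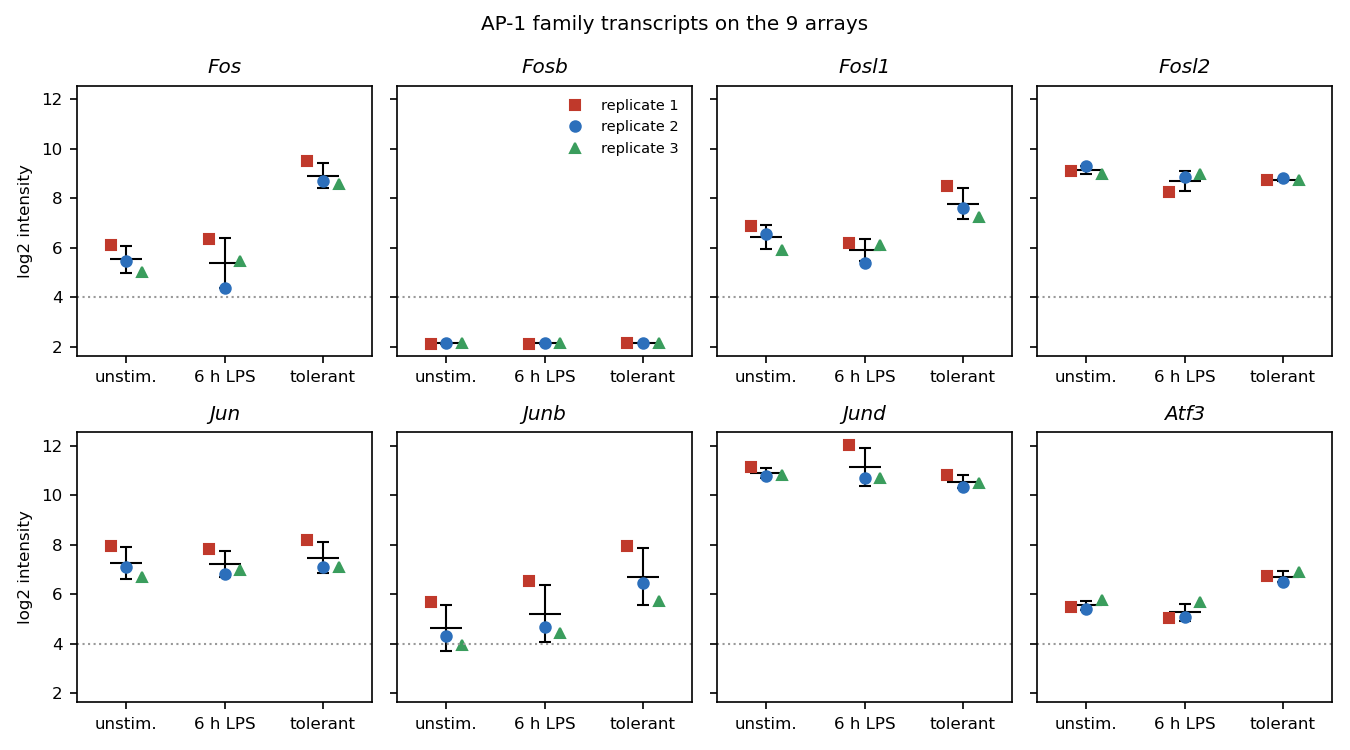
Log2 intensity of the 8 AP-1 genes (vertical axis) on each of the 9 arrays, with 1 panel per gene, 1 point per array, bars for the mean and SD of 3 arrays and a dotted line at log2 4. Fos, Fosl1 and Atf3 stand higher on all 3 tolerant arrays than on the other 6, and Fosb lies at the floor on all 9.

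Fos encodes the founding partner of Jun in AP-1 and is the textbook immediate-early gene. Its log2 intensity (probe set 1423100_at) was 6.11, 5.46 and 5.04 on the unstimulated arrays, 6.35, 4.36 and 5.46 on the 6 h arrays and 9.49, 8.71 and 8.56 on the tolerant arrays, each in the order of replicates 1, 2 and 3. The tolerant arrays lay above all others with no overlap, while the unstimulated and 6 h arrays were interleaved. The means were 5.54 ± 0.54, 5.39 ± 1.00 and 8.92 ± 0.50 (SD, n = 3).

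Fos was 10.4-fold higher in tolerant than in unstimulated cells, a log2 difference of 3.38 ± 0.49 (SE) with a 95% interval of 2.26 to 4.50 and limma adjusted p = 0.00193. It ranked 18th from the highest rise among 9431 genes in this comparison. It was 11.5-fold higher than at 6 h (log2 3.53, interval 2.41 to 4.65, limma adjusted p = 0.00237), ranking 16th. Between same-numbered replicates the difference from unstimulated cells was 3.38, 3.25 and 3.52. The change at 6 h was -0.15, with an interval of -1.27 to 0.97 and limma adjusted p = 0.873, and it was upward in 2 of 3 same-numbered pairs, so a modest change in either direction was not detectable with these arrays.

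Fosl1 encodes Fra-1, a Fos protein that lacks the strong activation domain of Fos and is itself a known AP-1 target. Its log2 intensity (1417487_at) was 6.87, 6.54 and 5.90 in unstimulated cells, 6.20, 5.39 and 6.13 at 6 h and 8.48, 7.59 and 7.26 in tolerant cells. Each tolerant array stood above every array of the other groups, but by a narrow margin, with 7.26 against 6.87. The means were 6.43 ± 0.49, 5.91 ± 0.45 and 7.78 ± 0.63 (SD, n = 3).

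Fosl1 was 2.54-fold higher in tolerant than in unstimulated cells (log2 1.34 ± 0.38, interval 0.49 to 2.20, limma adjusted p = 0.0292) and 3.66-fold higher than at 6 h (log2 1.87, interval 1.02 to 2.72, limma adjusted p = 0.0127). The call against unstimulated cells was lost in 4 of the 9 fits that left out 1 array. These left out unstimulated replicate 2 (log2 1.40, limma adjusted p = 0.073), unstimulated replicate 3 (1.08, 0.0902), tolerant replicate 1 (0.99, 0.0745) or tolerant replicate 2 (1.44, 0.0659). At 6 h the difference was -0.53, with an interval of -1.38 to 0.33 and limma adjusted p = 0.426.

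A dimmer probe set of Fosl1, 1417488_at, was also higher on the tolerant arrays. It read 3.99, 3.34 and 3.38 in unstimulated cells, 3.99, 2.91 and 3.15 at 6 h and 6.43, 5.06 and 4.73 in tolerant cells. All 6 arrays without the late culture were below log2 4, so it passed the level minimum only through the tolerant arrays and its change is given as a bound. The tolerant mean was 2.65-fold above log2 4, and so at least 2.65-fold above either other group. Because the minimum selected it through those arrays, no test of it is given.

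Fosl2 encodes Fra-2, the remaining Fos protein with a measured level. Its log2 intensity (1437247_at) was 9.11, 9.30 and 8.99 in unstimulated cells, 8.24, 8.88 and 8.99 at 6 h and 8.73, 8.80 and 8.72 in tolerant cells. The 3 tolerant arrays were all below the 3 unstimulated ones, while those at 6 h spanned both. No difference passed the limma test: tolerant minus unstimulated was -0.39 (interval -0.87 to 0.10, adjusted p = 0.217), and 6 h minus unstimulated was -0.43 (interval -0.91 to 0.05, adjusted p = 0.265).

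The dimmer Fosl2 probe set, 1422931_at, gave the opposite sign. It read 3.94, 4.05 and 3.69 in unstimulated cells, 4.81, 3.88 and 3.31 at 6 h and 5.09, 4.05 and 4.19 in tolerant cells. Tolerant minus unstimulated was 0.55. In unstimulated and in 6 h cells 2 of 3 arrays were below log2 4, so it met the level minimum only with the tolerant arrays. For that reason no test of it is given. The sign for Fosl2 thus differed between the probe sets, the dimmer of which lay near log2 4. Fosb, an immediate-early partner of Jun, gave 2.13 to 2.15 over the 9 arrays, at the floor of the background correction. At that level a change below the detection limit would not be seen.

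Jun, the founding Jun protein and a main partner of Fos, had 2 probe sets at the level minimum. The brighter, 1417409_at, read 7.97, 7.11 and 6.71 in unstimulated cells, 7.84, 6.84 and 6.99 at 6 h and 8.19, 7.12 and 7.11 in tolerant cells. Within each group replicate 1 was the highest array, and the 3 groups overlapped. Tolerant minus unstimulated was 0.21, with an interval of -0.74 to 1.17 and limma adjusted p = 0.755.

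For the same Jun probe set the tolerant cells differed from 6 h LPS by 0.25 (interval -0.70 to 1.21, limma adjusted p = 0.764), and the 6 h cells from unstimulated ones by -0.04 (interval -1.0 to 0.92, limma adjusted p = 0.963). The intervals reach about 1 log2 unit in either direction, so these arrays do not show that Jun was steady. The dimmer probe set, 1448694_at, read 7.26, 7.18 and 7.33, then 6.39, 6.99 and 7.33, then 6.99, 6.57 and 6.97 in the 3 groups. On it the tolerant arrays were all below the unstimulated ones, with a difference of -0.41 that did not pass the limma test (adjusted p = 0.264), so its sign was opposite to that of the brighter probe set.

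Junb, a Jun protein that often restrains Jun, was higher in tolerant cells on every same-numbered pair, but its arrays differed widely within each group. Its log2 intensity (1415899_at) was 5.71, 4.32 and 3.94 in unstimulated cells, 6.53, 4.68 and 4.44 at 6 h and 7.96, 6.47 and 5.72 in tolerant cells. Replicate 1 was the highest in each group. The tolerant arrays lay above the unstimulated ones by a narrow margin, 5.72 against 5.71, and overlapped with the 6 h arrays.

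Tolerant minus unstimulated for Junb was 2.06 ± 0.73 (SE; interval 0.41 to 3.72, 4.18-fold), with limma adjusted p = 0.067, which did not pass the threshold of 0.05. Tolerant minus 6 h was 1.5 (interval -0.15 to 3.15, 2.83-fold, limma adjusted p = 0.23). Same-numbered replicates differed from unstimulated cells by 2.26, 2.15 and 1.78 and from 6 h cells by 1.43, 1.79 and 1.28, a far narrower spread than that of the levels. With the replicate number as a block the SE fell to 0.15 and Junb was called in both comparisons (limma adjusted p = 6.22e-05 and 0.000294) and also at 6 h (0.56, adjusted p = 0.0381).

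The block raised the share of genes called generally: beside the 11.6% at 6 h, 22.7% of all genes were called higher in tolerant than in unstimulated cells and 16.0% higher in tolerant cells than at 6 h, against 4 of the 7 members in each. On replicates 2 and 3 alone, a choice made with earlier results of these data known, Junb was also called, at 1.97 against unstimulated cells (limma adjusted p = 0.00422) and 1.53 against 6 h LPS (limma adjusted p = 0.0134), where 18.5% and 11.2% of all genes were called higher. Leaving out unstimulated replicate 1 (log2 2.59, limma adjusted p = 0.0475) or 6 h replicate 1 (2.06, 0.0394) also brought the difference from unstimulated cells past the test, but the other 7 such fits did not, with adjusted p from 0.0587 to 0.179 in limma. Without tolerant replicate 1 it was 1.44 (limma adjusted p = 0.178). The difference from 6 h LPS passed in none of the 9 fits, at 0.88 without tolerant replicate 1 and 2.16 without 6 h replicate 1 (limma adjusted p = 0.517 and 0.0855). The Junb call therefore depends on how the difference between replicates is handled.

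Jund, the Jun protein that is expressed steadily in many tissues, read 11.13, 10.77 and 10.80 in unstimulated cells, 12.04, 10.68 and 10.70 at 6 h and 10.83, 10.35 and 10.48 in tolerant cells (1449117_at). Replicate 1 at 6 h was the highest of the 9 arrays, and the groups overlapped. Its tolerant difference was -0.35 (interval -1.13 to 0.44, limma adjusted p = 0.506) and its 6 h difference 0.24 (limma adjusted p = 0.702). Its other probe set, 1440265_at, lay below the minimum on every array at 2.35 to 2.49.

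Atf3, a stress-induced factor that pairs with Jun proteins and restrains inflammatory genes in macrophages, rose on arrays that varied little within each group. Its log2 intensity (1449363_at) was 5.50, 5.39 and 5.76 in unstimulated cells, 5.05, 5.07 and 5.68 at 6 h and 6.75, 6.48 and 6.90 in tolerant cells. The tolerant arrays lay above all 6 others, and replicate 1 did not stand apart. The means were 5.55 ± 0.19, 5.27 ± 0.36 and 6.71 ± 0.21 (SD, n = 3).

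Atf3 was 2.23-fold higher in tolerant than in unstimulated cells (log2 1.16 ± 0.22, interval 0.67 to 1.65, limma adjusted p = 0.00571) and 2.72-fold higher than at 6 h (log2 1.44, interval 0.95 to 1.94, limma adjusted p = 0.00338). Same-numbered replicates differed from unstimulated cells by 1.25, 1.09 and 1.14. At 6 h the difference was -0.28 (interval -0.78 to 0.21, limma adjusted p = 0.462) and was downward in all 3 pairs.

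**Figure D2:**
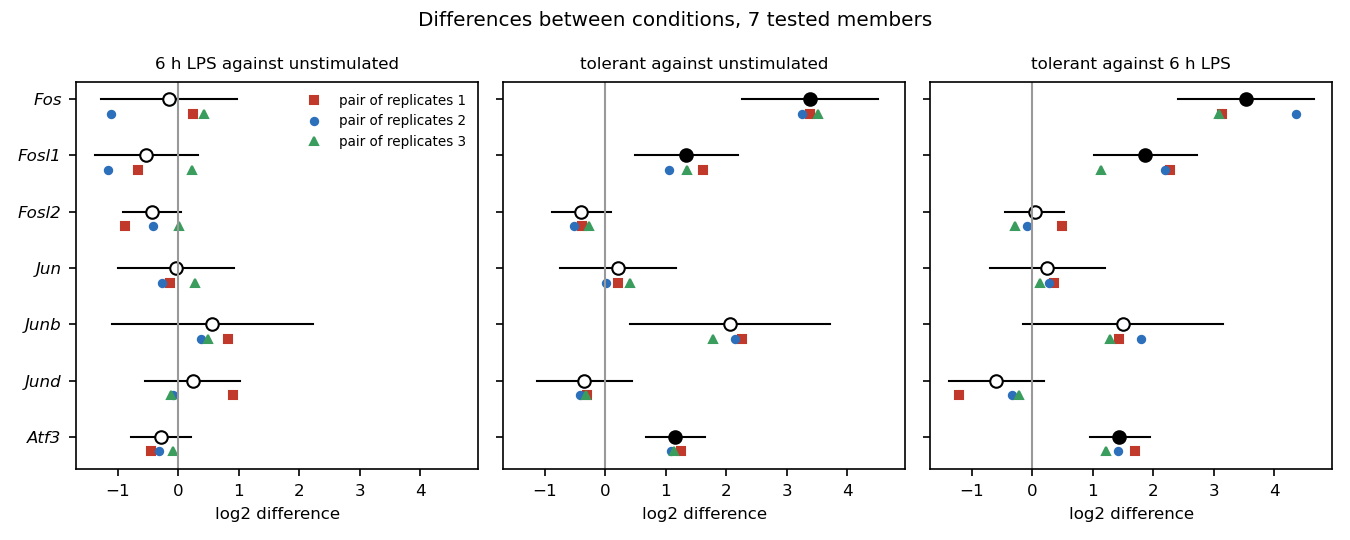
Log2 differences between conditions (horizontal axis) of the 7 tested members, with large circles for the fitted difference, filled where the limma adjusted p is under 0.05, lines for its 95% interval and small marks below for same-numbered replicates. The large circles of Fos, Fosl1 and Atf3 are filled in both comparisons of tolerant cells, and the small marks of Junb lie close together within a wide interval.

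By arrays alone, 4 of the 7 tested members were higher on every tolerant than on every unstimulated array (Fos, Fosl1, Junb and Atf3) and 1 was lower (Fosl2). Of all tested genes, 22.6% were separated upward in this way and 24.5% downward, and 12.2% were called lower by the test. In the comparison with 6 h, 3 members were separated upward beside 15.9% of all genes.

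**Figure D3:**
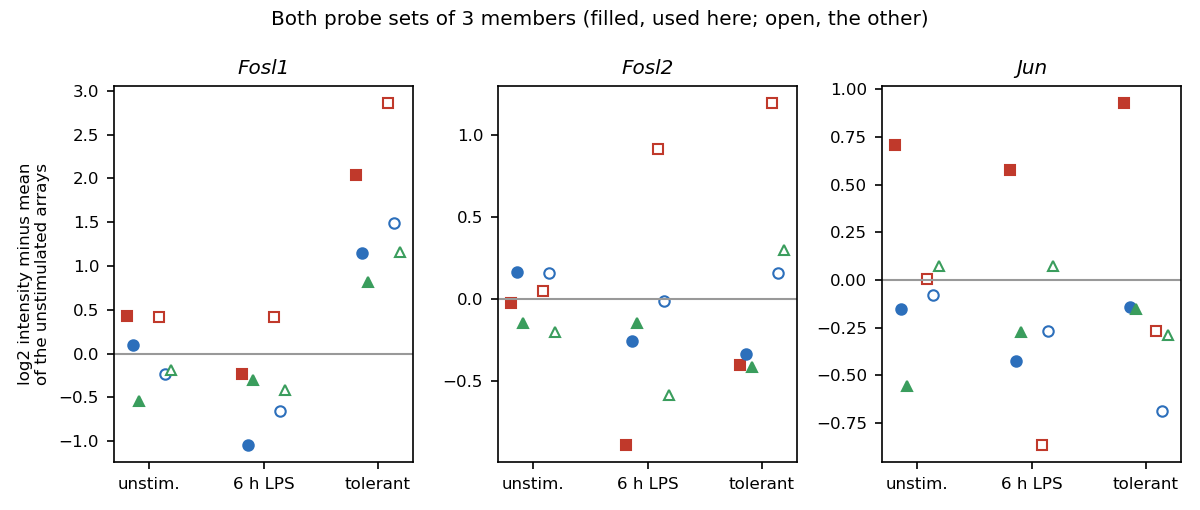
Log2 intensity minus the mean of the unstimulated arrays (vertical axis) on the 9 arrays for the probe sets of Fosl1, Fosl2 and Jun, filled for the brighter and open for the dimmer one, with squares, circles and triangles for replicates 1, 2 and 3. Both probe sets of Fosl1 lie high on the tolerant arrays, while the mean tolerant differences of the 2 probe sets were -0.39 and 0.55 for Fosl2 and 0.21 and -0.41 for Jun.

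Replicate 1 stood apart from replicates 2 and 3 in several members. Junb was higher in replicate 1 than the mean of the other replicates by 1.58, 1.97 and 1.87 in unstimulated, 6 h and tolerant cells, and Jun (1417409_at) by 1.06, 0.92 and 1.08, whereas the other Jun probe set differed by 0.01, -0.76 and 0.22. Fos was higher in replicate 1 by 0.86, 1.44 and 0.86, Fosl1 (1417487_at) by 0.65, 0.44 and 1.06 and Jund (1449117_at) by 0.34, 1.35 and 0.41. For Fosl2 (1437247_at) these values were -0.03, -0.70 and -0.02, and for Atf3 -0.08, -0.33 and 0.05. The actin control probes differed too: the 3′ minus 5′ log2 difference was 0.40 to 0.72 in replicate 1 and 1.02 to 1.38 in replicates 2 and 3. The Gapdh control probes did not separate replicate 1, with 3′ minus 5′ differences of -0.12, -0.06 and -0.20 there and -0.24 to -0.16 in the others. On replicates 2 and 3 alone the tolerant rise was 3.38 for Fos (limma adjusted p = 0.00224), 1.21 for Fosl1 (0.028) and 1.12 for Atf3 (0.0201) and each was called without replicate 1. The part of RNA quality in the spread of Junb was not tested.

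The tested genes' array medians lay between 7.62 and 7.84, and 59% to 60.9% of probe sets were below log2 4. Of 9 epithelial markers, 6 reached the level minimum, among them Krt8, Krt18 and Vil1, and their log2 sum was 13.67 to 14.15 in unstimulated, 13.41 to 14.08 in 6 h and 13.91 to 14.41 in tolerant cells. Cdh1, Krt19 and Cldn7 lay below log2 4 on all 9 arrays, and Epcam reached it on the tolerant arrays alone, at 5.31 to 6.07. Vim was the single fibroblast marker of 8 at the minimum, and 0 of 4 endothelial and 0 of 4 smooth muscle markers reached it. Of 7 leukocyte markers on the array, Ptprc and 5 others were below log2 4 throughout, while Csf1r lay at 10.10 to 11.20 in unstimulated and at 7.97 to 9.30 in tolerant cells. In bulk RNA, fewer cells of a type and less RNA per cell cannot be told apart, and the part of these shifts in the members' changes was not tested.

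Around the members, the partner bZIP genes, which can dimerize with Fos or Jun proteins, were tested for 6 of 11. Maff, a small Maf protein, rose 5.44-fold in tolerant against unstimulated cells (log2 2.44, limma adjusted p = 0.000267) and 6.19-fold against 6 h LPS (2.63, adjusted p = 0.000247). Atf2, a target of stress kinases, rose 2.11-fold against unstimulated cells (1.08, limma adjusted p = 0.0112), which makes 2 of 6 called higher and 0 lower. Of all tested genes, 26.2% were called in either direction in that comparison and 13.1% in tolerant cells against 6 h LPS.

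The MAP kinase cascade, which phosphorylates Jun and the factors that switch on Fos, had 20 of 27 genes tested. From unstimulated to tolerant cells 4 rose and 2 fell, beside 26.2% of all tested genes called in either direction. Map3k2 rose 4.07-fold (log2 2.03, limma adjusted p = 0.00221) and Mapk12, a p38 kinase, 3.27-fold (1.71, adjusted p = 0.000255). Mapk11, another p38 kinase, rose 2.09-fold (1.06, adjusted p = 0.0396), and Map3k5 (ASK1) fell by 0.86 (1.82-fold, adjusted p = 0.00309). The other calls, named after their values were seen, were Mapk8 (JNK1), higher by 0.57, and Mapk14 (p38 alpha), lower at -0.62. The other Mapk8 probe sets gave 0.54 and 1.66, the latter on the dimmest. Compared with 6 h LPS, Map3k2 (1.23, limma adjusted p = 0.0296) and Mapk12 (0.96, 0.00533) were higher and Map3k5 (-0.71, 0.012) lower. The share of all tested genes called in that comparison was 13.1%.

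Of the factors that drive Fos and Jun transcription, 10 of 13 were tested. In tolerant against unstimulated cells 3 rose and 1 fell, beside 26.2% of all tested genes called in either direction. Creb1, which binds cyclic AMP response elements, rose 3.23-fold in tolerant against unstimulated cells (log2 1.69, limma adjusted p = 0.0349), Mef2a 2.42-fold (1.28, adjusted p = 0.00808) and Elk4, a partner of serum response factor, 1.73-fold (0.79, adjusted p = 0.00677). Stat3 was lower at -0.68 (limma adjusted p = 0.0476), and its other probe set gave -0.22. Probe sets disagreed for Creb1: the next brightest gave 1.56, and a pair of dimmer ones gave -0.03 and -0.25. Of 5 Mef2a probe sets the dimmest gave 0.03. In the comparison with 6 h limma called 0 of the 10, beside 13.1% of all tested genes.

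Genes for AP-1 protein stability and coregulators, 10 of 11 tested, held 1 call in tolerant against unstimulated cells, beside 26.2% of all tested genes. It was Det1, a subunit of a ubiquitin ligase that acts on Jun, which fell by 1.06 (2.09-fold, limma adjusted p = 0.00517). Between 6 h and tolerant cells limma called 0 of the 10, beside 13.1% of all tested genes. Of 26 textbook AP-1 target genes 23 were on the array, and 11 of these did not reach the level minimum. The counts and the median therefore describe only the 12 tested, with 4 rises and 1 fall from unstimulated to tolerant cells. Among all tested genes 14.0% were called higher and 12.2% lower there. Hbegf, an EGF-family ligand, rose 5.13-fold (log2 2.36, limma adjusted p = 0.00662), and its other probe set gave 2.51. Ccnd1 (cyclin D1) rose 1.90-fold (0.92, adjusted p = 0.00286), Vegfa 1.90-fold (0.92, adjusted p = 0.00722) and Plaur, the urokinase receptor, by 0.58 (adjusted p = 0.0366).

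Against 6 h LPS 5 targets were higher and 1 lower, where 7.10% of all tested genes were called higher and 6.02% lower. Hbegf was higher by 2.59 (limma adjusted p = 0.00695), Ccnd1 by 0.94 (0.00416), Plaur by 0.78 (0.0183) and Timp1, an inhibitor of matrix proteases, by 0.74 (0.0176). Vegfa, higher by 0.67, and Mt2, a metallothionein that was lower at -0.62 and also lower against unstimulated cells at -0.54, complete the calls and were named after their values were seen. The tested targets' median difference from unstimulated cells was 0.43, where that of all genes was -0.07. A list of targets known from other tissues does not show which factor acted on them here.

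At 6 h limma called 0 genes of these 5 lists, beside 0.0636% of all tested genes. With the replicate block the 6 h calls became 1 higher and 1 lower partner, 3 and 1 kinases and 1 and 0 drivers. Stability genes had 1 and 0 and targets 1 and 1, beside the 24.0% of all genes. In tolerant against unstimulated cells the block gave 2 higher and 0 lower partners, 7 and 6 kinases, 5 and 1 drivers, 1 and 2 stability genes and 6 and 1 targets, beside 48.6% of all genes. Against 6 h LPS it gave 1 higher and 1 lower partner, 6 and 3 kinases, 3 and 1 drivers, 0 and 3 stability genes and 6 and 1 targets, beside 31.7% of all genes.

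**Figure D4:**
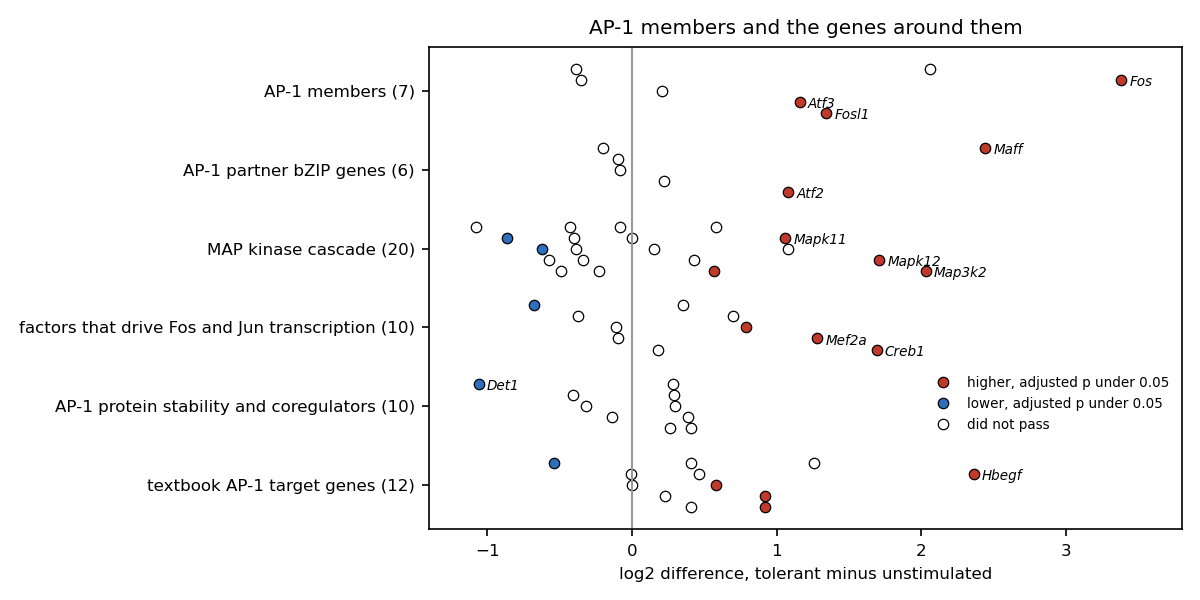
Log2 difference of tolerant minus unstimulated cells (horizontal axis) for the tested genes of the AP-1 family and 5 lists around it, 1 circle per gene, filled red where higher and blue where lower at a limma adjusted p under 0.05. Fos lies farthest to the right at 3.38, and Maff and Hbegf are the highest outside the family.

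The genes whose pattern was most like a member's were ranked by Pearson's r over the 9 arrays, which fall into 3 groups, so a high r reflects the group differences as well as the replicates, and it is given as a description. For Fos they were Tmem171 (0.993), Nek2 (0.990), Cdh13 (0.988), Lims2 (0.986) and Phlda1 (0.984). For Fosl1 they were Aen (0.985), Ppara (0.981), Egln3 (0.981), Eya2 (0.978) and Zmynd19 (0.976). For Atf3 they were Ctbs (0.985), Klhl30 (0.984), Pabpn1l (0.977), Spg20 (0.976) and Pvr (0.974).

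Junb was most like Runx1 (0.985), Elovl5 (0.981), Arpc2 (0.979), Slc25a30 (0.977) and Epha2 (0.975). Of these, Runx1 differed by 2.19 between tolerant and unstimulated cells and Arpc2 by 0.38, so a high likeness did not need a change of like size. For Jun the genes were Smad4 (0.988), Nploc4, Klf13 and Rab12 (each 0.986) and Mettl27 (0.984), with tolerant differences of 0.10 to 0.40. For Jund they were Nav2 (0.985), Chpt1 (0.983), Tkfc (0.967), Map3k7cl (0.966) and Gigyf1 (0.965), and for Fosl2 Phactr4 (0.970), Arf1 (0.962), Gpn1 and Mtus2 (each 0.958) and Prpf31 (0.955).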

How the data were processed

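Total RNA of 9 samples was hybridised to Affymetrix mouse arrays, 1 array per sample. The authors deposited 1 linear intensity per probe set and array. The submitters' processing notes name GCRMA, with no version. This method subtracts a sequence-based background and normalizes between arrays, so dim probe sets crowd at a floor. Values were turned into log2 with no pseudocount. Probe sets with several symbols (932) or none (9160) were left out, and of the rest the brightest per gene was used.

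limma 3.58.1 in R 4.3.3 fitted a mean per condition over all 9 arrays (6 residual degrees of freedom), with eBayes and Benjamini-Hochberg adjustment within each comparison over the 9431 genes that reached log2 4 on 3 or more arrays. Folds against a group wholly below log2 4 are bounds. Array number limits the precision. The steps were tested on simulated data.

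Members and lists were chosen with earlier results of these data known. All 8 members are named, with up to 4 called genes of each other list by size of change, and the 5 genes most alike to each member. Same-numbered arrays deviated together, with correlations of 0.157 to 0.844 from the deviations alone. Arrays of replicates 2 and 3 with different numbers correlated at 0.214 to 0.731, so only replicate 1 stood apart by its number. Its arrays correlated with those of other numbers at -0.743 to -0.375. The main fit used no pairing, as the labels state no statistical model. The deviation that the replicate 1 arrays share is thus part of the spread in that fit, and the replicate block is given as an alternative. Alternatives covered filters, probe set rules, scaling, the replicate block, a fold threshold and each array left out. The block of replicate 1 was added after seeing the data.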

Additional observations from a re-analysis of the deposited data

How the results depend on the processing

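The rises of Fos, Fosl1 and Atf3 kept their direction under all 22 alternatives in both comparisons of tolerant cells. Several of these, such as the level filters, the blocks and the fold threshold, alter the test and not the log2 difference. Under those the direction was fixed in advance. For Fosl1 the most variable probe set was the dimmer one, which passed the level minimum only through the tolerant arrays. The count of called members was 2 to 4 against unstimulated cells and 3 throughout against 6 h LPS when each array was left out in turn, and 0 throughout at 6 h. A test against a 1.5-fold threshold left 1 member called in tolerant against unstimulated cells, Fos, beside 3.24% of all tested genes called higher. Against 6 h LPS that test kept the call of Fos and lost those of Fosl1 and Atf3 (limma adjusted p = 0.106 and 0.0594). The Fosl1 call against unstimulated cells was also lost with no level filter (limma adjusted p = 0.0969). The replicate block gave 1 called member at 6 h, Junb, and changed no other member's call than those of Junb. The block of replicate 1 against the others gave 0 called members at 6 h, beside 13.4% of all genes called higher.

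Some differences that did not pass the main test changed sign under an alternative. They were those of Fos, Fosl2, Jun, Junb and Jund at 6 h and of Fosl2 and Jun in tolerant cells, and the others kept theirs. At 6 h, with arrays left out, Fos ranged from -0.63 to 0.37 (0.14 without unstimulated replicate 1), Jun from -0.35 to 0.31 (also 0.15 and 0.08), Junb from -0.09 to 1.09 and Jund from -0.21 to 0.47. On replicates 2 and 3 alone Jun was 0.01 and Jund -0.10 at 6 h, and Fosl2 was -0.18 in tolerant cells against 6 h LPS. By its most variable probe set Fosl2 was 0.11 at 6 h and 0.55 in tolerant against unstimulated cells; with probe sets averaged the latter was 0.08 and that of Jun -0.10. With arrays left out Jun ranged from -0.15 to 0.57 (-0.07 without unstimulated replicate 3) against unstimulated cells and from -0.11 to 0.56 against 6 h LPS, and Fosl2 from -0.19 to 0.19 against 6 h LPS; with equal array medians Fosl2 was -0.01. The cause was not tested.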
